A study of Mus musculus with 15 samples.

Results

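The 33 genes described here carry or control salt transport in the late nephron: the thick ascending limb of the loop of Henle, the distal convoluted tubule, the connecting tubule and the principal cells of the collecting duct. They were chosen by symbol, with earlier results of these data known. All 33 had a row among the 23866 gene rows of the count table, and all 33 were among the 16105 genes with enough counts to be tested. By role, 7 belong to the thick ascending limb, 7 to the distal convoluted tubule, 3 to distal calcium transport, 4 to the WNK kinase pathway, 7 to the epithelial sodium channel and its control by aldosterone, 2 are other genes of principal cells, and 3 encode subunits or regulators of the sodium pump.

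Whole kidneys of male C57BL/6 mice were profiled by RNA-seq, 1 library per mouse, in 4 groups. The olive oil group (3 libraries) received olive oil, the vehicle, by intraperitoneal injection for 6 weeks. The CCl4 group (4 libraries) received the solvent carbon tetrachloride (CCl4) by the same route for 6 weeks, and its replicates 3 and 4 then received a reduced dose for another 4 weeks. The EtOH group (4 libraries) received olive oil for 6 weeks and, after that, ethanol for 4. The CCl4+EtOH group (3 libraries) received CCl4 for 6 weeks and ethanol in the 4 weeks that followed. The titles of the last group repeat CCl4 before ethanol, so whether CCl4 went on during the ethanol weeks cannot be told from the labels. The labels also give no absolute doses and no ages. The olive oil mice have no second course, so in a comparison with them ethanol and 4 further weeks cannot be told apart. Another olive oil sample was not analysed here. Libraries held between 16356512 and 23545275 counts.

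Levels are given in CPM, the usual scale of counts set against the size of the library, which compares a gene between libraries and not genes with each other. Some libraries stood apart from their group. In CCl4+EtOH, Havcr1, a marker of injured proximal tubule cells, read 2000 CPM in replicate 1, 1151 in replicate 2 and 108.0 in replicate 3, against 5.311 to 11.85 CPM after olive oil. Lcn2, which injured tubules secrete, read 404.9, 349.0 and 45.03 CPM in the same 3 libraries. EtOH replicates 1 to 3 held adrenal transcripts: a list of 10 adrenal markers summed to between 750.7 and 1198 CPM in them, and to 8.749 CPM in EtOH replicate 4, where 7 of the 10 markers were at 0. Results that rest on these libraries are given with and without them. Markers of kidney epithelium (Cdh1, Cdh16, Pax2, Pax8) summed to between 1701 and 1986 CPM in every library, so the labelled tissue was present throughout.

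The thick ascending limb takes up sodium, potassium and chloride through a furosemide-sensitive cotransporter and returns potassium to the lumen through an apical channel, which drives calcium and magnesium uptake between the cells. The distal convoluted tubule takes up sodium chloride through the thiazide-sensitive cotransporter, which the WNK and SPAK kinases switch on, and it fine-tunes magnesium and calcium excretion. Principal cells of the connecting tubule and collecting duct take up sodium through the epithelial sodium channel under the control of aldosterone, and the sodium pump in the basolateral membrane powers all of these steps.

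Promoter sequences of 4 members are shown because they carry the letters of known control elements next to genes whose levels are described below. Of the 33 members, 25 had a promoter in the RefSeq table of build GRCm38.p6, with 35 promoter windows among them, and the 250 bases before each start were searched. Coordinates are of GRCm38.p6 and not of mm9, the build named for the counts. Each stretch of 100 bases runs 5′ to 3′ on the gene's own strand, and the capitals mark the matched letters. The Umod stretch (chr7:119479412-119479511, minus strand) holds GTTAAT, the half-site of the kidney transcription factor HNF1, from 202 to 197 bases before the start. The Slc12a3 stretch (chr8:94329108-94329207, plus strand) holds TATAAA, the core of a TATA box, from 32 to 27 bases before the start. The Trpv5 stretch (chr6:41680724-41680823, minus strand) holds TATAAA from 43 to 38 bases before the start. The Sgk1 stretch (chr10:21993658-21993757, plus strand) holds the palindrome that steroid hormone receptors bind, AGAACA and TGTTCT with 3 bases between them, from 189 to 175 bases before the start.
Umod: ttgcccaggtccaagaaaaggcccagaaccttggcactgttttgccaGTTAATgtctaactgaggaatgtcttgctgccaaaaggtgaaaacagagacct
Slc12a3: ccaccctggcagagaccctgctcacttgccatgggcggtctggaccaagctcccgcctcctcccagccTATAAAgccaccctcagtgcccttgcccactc
Trpv5: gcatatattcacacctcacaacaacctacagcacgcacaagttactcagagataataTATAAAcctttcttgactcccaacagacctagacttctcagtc
Sgk1: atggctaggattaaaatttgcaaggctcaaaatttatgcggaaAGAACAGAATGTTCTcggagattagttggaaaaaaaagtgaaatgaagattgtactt

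The palindrome stood in 1 of the 6 Sgk1 windows and in 3 of all 32851 windows of the table, or 0.00913%, searched on both strands. GTTAAT, searched on both strands, stood in 6.43% of all windows and, among members, before Umod and Kcnj16. TATAAA, searched on the gene's strand only, stood in 7.59% of all windows and, among members, before Kcnj16, Sgk1, Slc12a3 and Trpv5. Of the 4 genes printed, Trpv5 rose in CCl4+EtOH against olive oil, and Umod, Slc12a3 and Sgk1 did not pass the test. A match of letters is a description of the sequence, and binding was not measured.

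With CCl4 and ethanol together, salt transport genes of the loop and distal nephron were mostly lower than after olive oil. Of the 33 members, 13 fell (39.4%, beside 16.6% of all genes tested) and 2 rose (6.06%, beside 18.9%), by edgeR's quasi-likelihood test at an adjusted p under 0.05. The median log2 change was -0.34 over the members and 0.02 over all genes tested. The genes that fell came from the thick ascending limb (Slc12a1, Kcnj1, Bsnd, Ptger3, Ppp1r1a), the distal convoluted tubule (Cnnm2, Kcnj10), calcium transport (Calb1), the WNK pathway (Wnk4, Stk39, Klhl3), the sodium channel (Scnn1a) and the sodium pump (Fxyd2). The calcium channel gene Trpv5 and the potassium channel gene Kcnma1 rose. In whole kidney RNA, fewer cells of a type and less RNA per cell cannot be told apart.

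**Figure D1:**
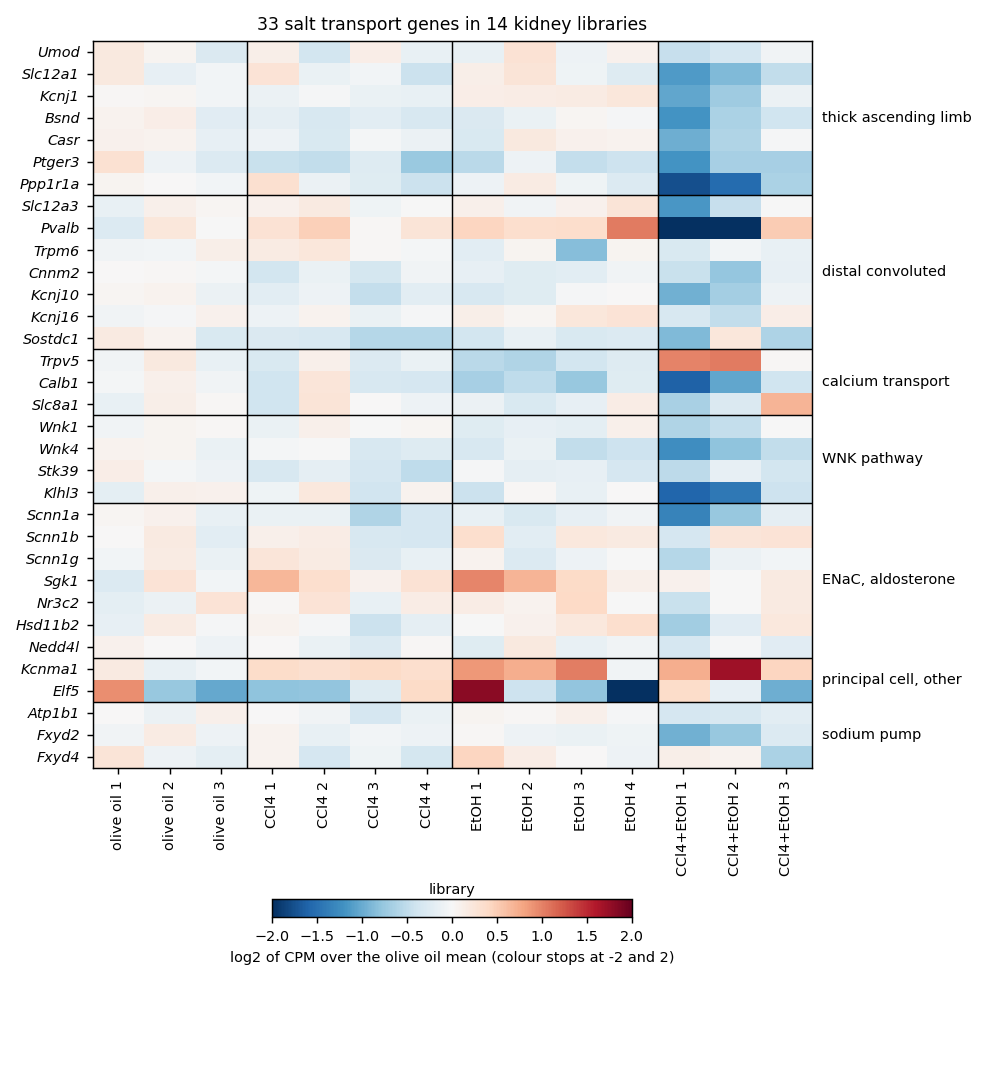
Each row is a member gene and each column a library; colour gives log2 of the CPM over the mean of the 3 olive oil libraries, from blue (lower) through white to red (higher), and stops at -2 and 2. Most rows turn blue in CCl4+EtOH replicates 1 and 2 and less so in replicate 3, while Trpv5 turns red in replicates 1 and 2.

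Replicate 3 of CCl4+EtOH stood above replicates 1 and 2 for 25 of 33 members (75.8%, beside 39.1% of all genes tested), the order opposite to that of Havcr1 and Lcn2. Without replicate 3, 21 members fell, among them the same 13, and 2 rose, beside 22.1% of all genes lower and 23.1% higher. Without replicate 1, 9 fell and 1 rose, beside 10.9% of all genes lower, and without replicate 2, 9 fell and none was called higher, beside 10.6% lower. With library totals in place of scaled libraries, the median of all genes moved to 0.26 and the members' median to -0.11. Under that scaling 8 members fell and 2 rose, and the calls over all genes went from 3036 higher and 2670 lower to 5834 higher and 1413 lower. Another fit had a block for low and high animal numbers in the titles, whose meaning the labels do not give. It left 2 members lower and none higher, beside 9.5% of all genes lower. The members' share was thus under that of all genes in this fit, while their median log2 change was -0.36. All olive oil mice had low numbers and all CCl4+EtOH mice high ones, so the block could be estimated only from the CCl4 and EtOH groups. Within the CCl4 group, low and high numbers were also the shorter and the longer schedule. Within the EtOH group, whose mice shared a schedule, replicate 1 alone had a low number. Only that library sets the block apart from the schedule, so the fit cannot cleanly separate the block from the treatment or the schedule. A fit of only these 2 groups left 4 members lower and none higher, beside 9.4% of all genes lower, with a median of -0.354.

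**Figure D2:**
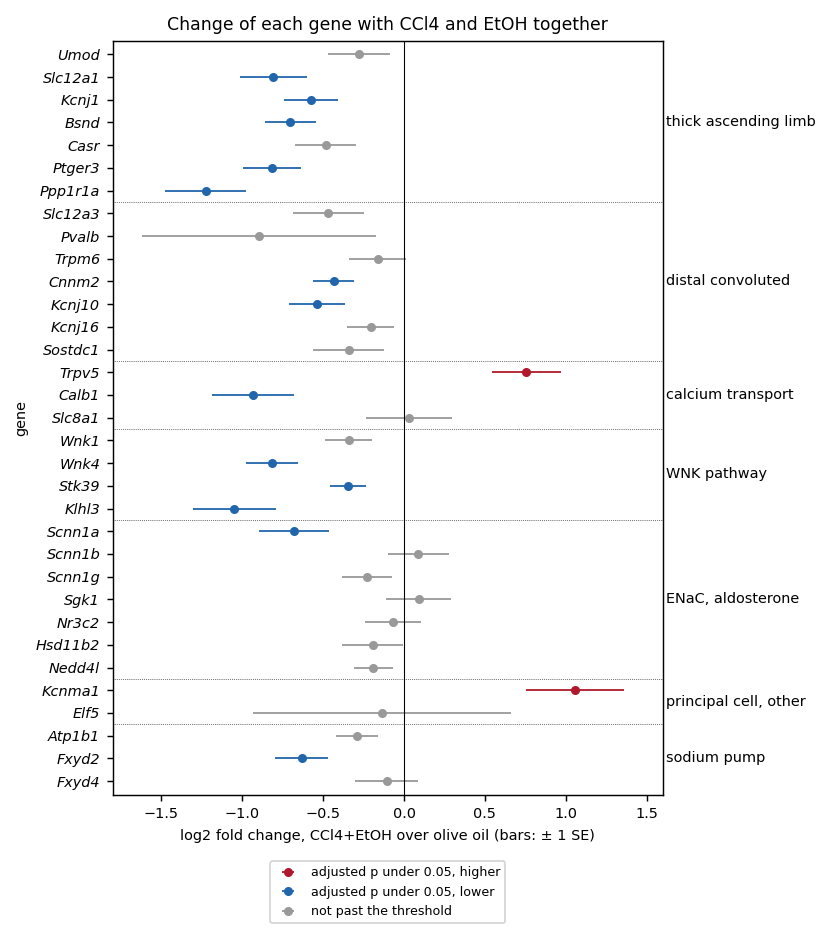
Points give the log2 fold change of each member in CCl4+EtOH (3 libraries) over olive oil (3 libraries), bars give 1 standard error on each side, and colour marks calls at an adjusted p under 0.05. The 13 genes called lower lie between -1.23 and -0.35, and Trpv5 and Kcnma1 lie above 0; the widest bars belong to Pvalb and Elf5.

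In the thick ascending limb, 5 of 7 members fell in CCl4+EtOH against olive oil (71.4%, beside 16.6% of all genes tested). The median log2 change of the 7 was -0.70. Slc12a1 encodes the furosemide-sensitive cotransporter, the main salt entry of this segment. It read 1933, 1518 and 1627 CPM in the olive oil libraries and 774.4, 920.4 and 1204 CPM in CCl4+EtOH, with 2055, 1542, 1630 and 1255 CPM after CCl4 and 1844, 2034, 1598 and 1418 CPM after ethanol. The 3 CCl4+EtOH libraries lay below all other 11, and the log2 change against olive oil was -0.81 ± 0.21 (standard error, SE; adjusted p = 0.0083). The Slc12a1 call was lost only in the fit with the title number block (adjusted p = 0.163). Umod encodes uromodulin, the protein that this segment secretes into urine. It read 5548, 5015 and 3989 CPM after olive oil against 3521, 3855 and 4637 CPM in CCl4+EtOH, with overlap and a log2 change of -0.28 ± 0.19 (adjusted p = 0.278).

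Ppp1r1a, an inhibitor of protein phosphatase 1, had the most negative change of all members in this comparison. It read 175.9, 171.2 and 163.0 CPM after olive oil and 50.18, 58.27 and 109.8 CPM in CCl4+EtOH. The libraries read 211.2, 156.0, 143.5 and 126.8 CPM after CCl4 and 158.1, 190.3, 159.8 and 141.1 CPM after ethanol. All 3 CCl4+EtOH values were below the other 11, and the log2 change against olive oil was -1.225 ± 0.25 (adjusted p = 0.0026). The call held without any single library and was lost in the fit with the title number block (adjusted p = 0.0588).

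Kcnj1 encodes the apical potassium channel ROMK. It read 312.6, 315.5 and 297.3 CPM after olive oil, and 149.5, 188.7 and 283.6 CPM in CCl4+EtOH, so that replicate 3 lay just under the olive oil range. The CCl4 libraries read 285.9, 302.9, 281.9 and 277.7 CPM and the EtOH libraries 336.4, 343.4, 345.3 and 360.5 CPM, all 4 of the latter above the olive oil range. The log2 change was -0.57 ± 0.17 (adjusted p = 0.0154), and without CCl4+EtOH replicate 1 or 2 the adjusted p was 0.063 and 0.0671. The coefficient of variation of Kcnj1 was 3.17% over the olive oil libraries and 33.3% in CCl4+EtOH. Bsnd encodes barttin, a membrane protein of this segment that salt reabsorption needs. It averaged 80.34 ± 10.37 CPM (SD, n = 3) after olive oil and 49.40 ± 13.19 CPM (SD, n = 3) in CCl4+EtOH, without overlap, a log2 change of -0.70 ± 0.16. Ptger3, a receptor for prostaglandin E2, went from 41.34 ± 8.72 to 23.44 ± 4.61 CPM (SD, n = 3 each), a log2 change of -0.82 ± 0.18 that stayed past the threshold under all 26 alternatives run. Casr, the calcium-sensing receptor of the basolateral membrane, read 86.47, 86.04 and 72.78 CPM after olive oil and 41.52, 53.83 and 80.05 CPM in CCl4+EtOH. Its groups overlapped through replicate 3, and its adjusted p was 0.0605, or 0.000605 without that library.

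In the distal convoluted tubule, 2 of 7 members fell in CCl4+EtOH against olive oil (28.6%, beside 16.6% of all genes tested). Both are genes of the basolateral membrane, and the median log2 change of the 7 was -0.435. Cnnm2, needed for magnesium handling, averaged 49.04 ± 1.09 CPM (SD, n = 3) after olive oil and 36.28 ± 7.63 CPM (SD, n = 3) in CCl4+EtOH, a log2 change of -0.435 ± 0.13 (adjusted p = 0.0163). Without CCl4+EtOH replicate 2 its adjusted p was 0.0742. Kcnj10 encodes a pore subunit of the potassium channel that sets the voltage of the basolateral membrane. It read 121.4, 123.8 and 108.8 CPM after olive oil and 60.67, 73.60 and 109.4 CPM in CCl4+EtOH, where replicate 3 lay inside the olive oil range. Its log2 change was -0.54 ± 0.17 (adjusted p = 0.0265). That call was lost when olive oil replicate 1 or 2 or CCl4+EtOH replicate 1 or 2 was left out, with adjusted p between 0.065 and 0.119. Kcnj16, its partner in the channel, had a log2 change of -0.21 ± 0.15 (adjusted p = 0.286).

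Slc12a3, the thiazide-sensitive cotransporter and the hallmark of this segment, read 1395, 1649 and 1590 CPM after olive oil, 1634, 1759, 1448 and 1544 CPM after CCl4 and 1658, 1464, 1643 and 1849 CPM after ethanol. The CCl4+EtOH libraries read 687.4, 1127 and 1538 CPM, so 2 of them lay below all other libraries and replicate 3 among them. The log2 change against olive oil was -0.47 ± 0.22 (adjusted p = 0.108), and without replicate 3 it was -0.77 (adjusted p = 0.00235). Pvalb, a calcium-binding protein of the early part of the segment, split the group further. It read 11.44, 16.17 and 13.77 CPM after olive oil and 1.907, 0.9281 and 19.56 CPM in CCl4+EtOH, while the CCl4 and EtOH libraries lay between 14.06 and 28.28 CPM. Replicates 1 and 2 were the lowest and replicate 3 was above the whole olive oil range, which gave a coefficient of variation of 140.5% and a log2 change of -0.90 ± 0.72 (adjusted p = 0.358). Without replicate 3 the log2 change was -3.28 (adjusted p = 2.73e-06). Parvalbumin is also abundant in skeletal muscle. The 8 muscle markers summed to between 2.875 and 5.552 CPM in every library, and the part of muscle in the Pvalb values was not tested.

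Trpm6, the apical magnesium channel, and Sostdc1, a secreted antagonist of growth factor signals, did not pass the test. Trpm6 read 34.49, 35.03 and 39.29 CPM after olive oil and 29.44, 35.07 and 32.64 CPM in CCl4+EtOH, a log2 change of -0.16 ± 0.18. Sostdc1 averaged 85.25 ± 14.39 CPM after olive oil (SD, n = 3) and 67.27 ± 28.73 CPM in CCl4+EtOH (SD, n = 3). Its spread came from CCl4+EtOH replicate 2 at 99.99 CPM, beside 46.17 and 55.65 CPM in the other libraries of that group, and without that library its log2 change went from -0.34 to -0.74 (adjusted p = 0.00462).

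The 3 genes of transcellular calcium transport did not move together. Trpv5, the channel through which calcium enters these cells, read 28.69, 34.14 and 27.10 CPM after olive oil and 59.52, 61.86 and 30.61 CPM in CCl4+EtOH. It read 24.36, 32.03, 24.75 and 27.36 CPM after CCl4 and 20.52, 19.83, 23.16 and 25.17 CPM after ethanol. CCl4+EtOH replicates 1 and 2 were thus the highest of all 14 libraries, while replicate 3 lay within the olive oil range. The log2 change against olive oil was 0.76 ± 0.21 (adjusted p = 0.014). Without olive oil replicate 3, CCl4+EtOH replicate 1 or CCl4+EtOH replicate 2 the adjusted p was 0.0551, 0.0591 and 0.0657. Trpv6, the near copy of Trpv5 that was looked at after its values were seen, read 9.376, 9.805 and 2.116 CPM in CCl4+EtOH and between 1.502 and 2.875 CPM after olive oil. Reads shared between the pair cannot be placed from these counts.

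Calb1, calbindin, which carries calcium across the cell, moved the other way. It read 579.4, 642.2 and 568.7 CPM after olive oil and 194.4, 289.8 and 452.9 CPM in CCl4+EtOH, without overlap. The CCl4 libraries read 454.9, 704.7, 479.8 and 471.5 CPM and the EtOH libraries 376.4, 421.5, 352.3 and 506.3 CPM, all 4 below the olive oil range in the latter. The log2 change in CCl4+EtOH against olive oil was -0.93 ± 0.26 (adjusted p = 0.0121), with an adjusted p of 0.0514 without CCl4+EtOH replicate 2. Slc8a1, the exchanger that moves calcium out into the blood, read 163.1, 210.7 and 413.4 CPM in CCl4+EtOH, on both sides of the olive oil values of 230.5, 278.7 and 261.3 CPM. Its log2 change was 0.03 ± 0.27 and turned to -0.46 (adjusted p = 0.0466) without replicate 3. Smooth muscle, which also makes this exchanger, gave marker sums of 236.5 to 369.3 CPM in CCl4+EtOH and 208.6 to 325.7 CPM after olive oil, and its part in the result was not tested.

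**Figure D3:**
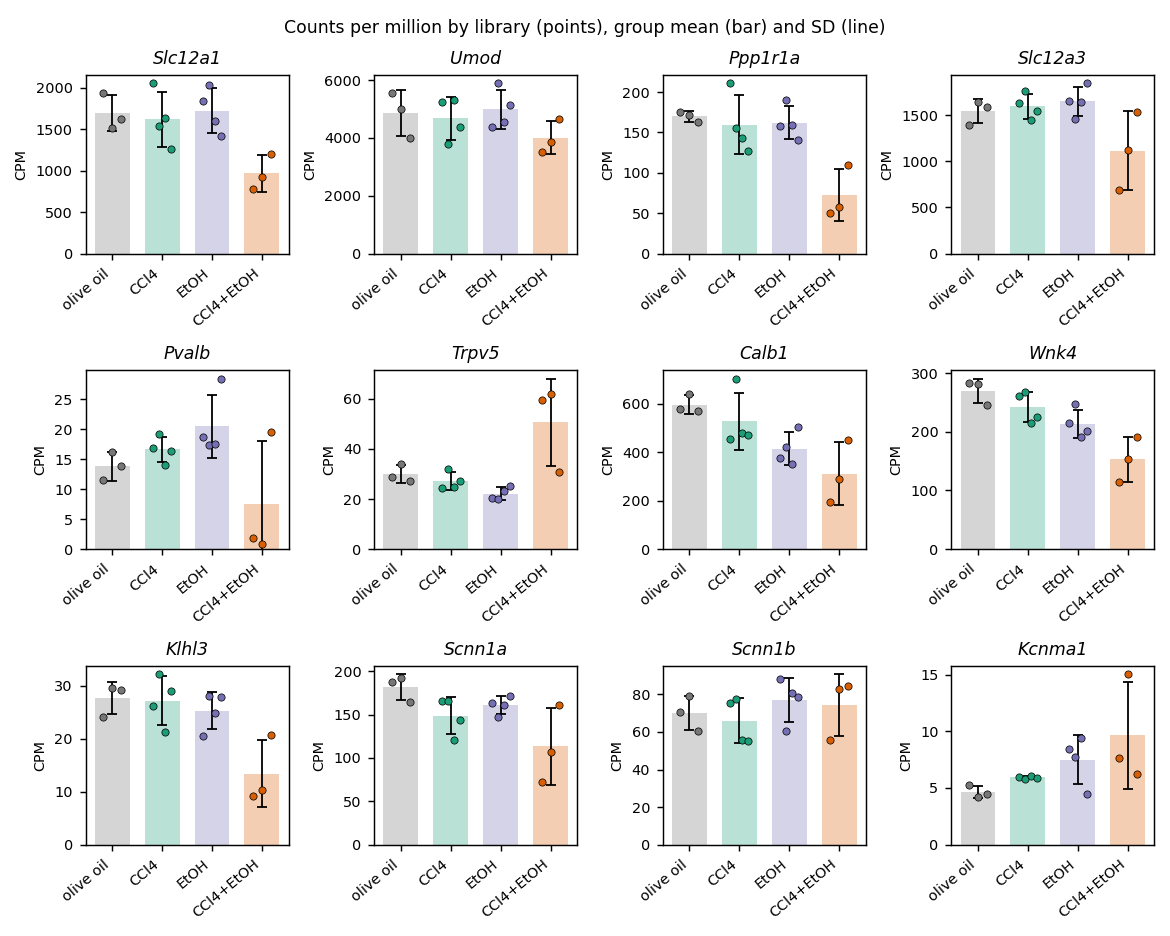
Each panel plots the CPM of a member in the 14 libraries (points) with the group mean (bar) and the SD (line, cut at 0 for Pvalb), from an axis that starts at 0. Slc12a1, Ppp1r1a and Calb1 are lower in all 3 CCl4+EtOH libraries than in every olive oil library, Trpv5 is high in 2 of them, and Pvalb is near 0 in 2 and at 19.56 CPM in the third.

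In the WNK pathway, 3 of 4 members fell in CCl4+EtOH against olive oil (75%, beside 16.6% of all genes tested), with a median log2 change of -0.58. Wnk4, a kinase that sets the activity of the thiazide-sensitive cotransporter, read 283.2, 280.8 and 245.8 CPM after olive oil and 114.7, 154.3 and 191.2 CPM in CCl4+EtOH. It read 261.5, 267.3, 215.4 and 225.4 CPM after CCl4 and 215.7, 247.0, 192.0 and 201.5 CPM after ethanol. All 3 CCl4+EtOH libraries lay below the other 11, although replicate 3 did so by less than 1 CPM. The log2 change against olive oil was -0.82 ± 0.16 (adjusted p = 0.00189). That call was lost only in the fit with the title number block (adjusted p = 0.0505).

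Klhl3, the adaptor that brings WNK kinases to a ubiquitin ligase for removal, read 24.17, 29.64 and 29.26 CPM after olive oil and 9.257, 10.25 and 20.77 CPM in CCl4+EtOH. Its log2 change was -1.05 ± 0.26 (adjusted p = 0.00686), with no overlap between the groups. That call was lost in the fit of only the groups compared and in the fit with the title number block. Stk39, the kinase SPAK that the WNK kinases act through, averaged 55.32 ± 4.88 CPM after olive oil (SD, n = 3), 43.90 ± 4.02 CPM after CCl4 (SD, n = 4) and 43.48 ± 5.53 CPM in CCl4+EtOH (SD, n = 3). Its log2 change in CCl4+EtOH was -0.35 ± 0.11 (adjusted p = 0.0273), and the call was lost without olive oil replicate 1, olive oil replicate 2 or CCl4+EtOH replicate 1, with adjusted p of 0.105, 0.0515 and 0.138. Wnk1 averaged 686.8 ± 30.83 CPM after olive oil and 541.9 ± 120.7 CPM in CCl4+EtOH (SD, n = 3 each), a log2 change of -0.34 ± 0.15 (adjusted p = 0.0831, and 0.00126 without CCl4+EtOH replicate 3). Counts per gene do not separate the short kidney form of Wnk1 from the full-length kinase.

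Of the 7 genes of the epithelial sodium channel and the aldosterone response, 1 fell in CCl4+EtOH against olive oil (14.3%, beside 16.6% of all genes tested). It was the gene of the alpha subunit of the channel, and the median log2 change of the 7 was -0.19. Scnn1a, that subunit, read 187.4, 192.7 and 164.2 CPM after olive oil and 72.07, 107.2 and 160.5 CPM in CCl4+EtOH. The CCl4 libraries read 165.4, 165.7, 120.2 and 144.0 CPM and the EtOH libraries 163.6, 147.1, 161.1 and 171.9 CPM. Replicate 3 of CCl4+EtOH lay just under the olive oil values and replicates 1 and 2 below all other libraries. The log2 change was -0.68 ± 0.21 (adjusted p = 0.0247), and it lost its call without olive oil replicate 1 or 2 or CCl4+EtOH replicate 1 or 2, with adjusted p between 0.0605 and 0.085.

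The beta and gamma subunits did not pass the test. Scnn1b read 70.46, 78.98 and 60.59 CPM after olive oil and 55.50, 83.00 and 84.71 CPM in CCl4+EtOH, a log2 change of 0.09 ± 0.19. Scnn1g averaged 56.07 ± 6.26 and 47.88 ± 8.82 CPM (SD, n = 3 each), a log2 change of -0.23 ± 0.16. Nr3c2, the mineralocorticoid receptor, had a log2 change of -0.07 ± 0.17, Nedd4l, the ubiquitin ligase that removes the channel from the membrane, -0.19 ± 0.12, and Hsd11b2, the enzyme that shields the receptor from glucocorticoids, -0.19 ± 0.19. Hsd11b2 read 81.45, 112.3 and 151.6 CPM in CCl4+EtOH, beyond the olive oil range of 117.6 to 148.1 CPM on both sides.

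Sgk1 encodes a kinase that aldosterone and glucocorticoids induce. It read 70.69, 103.4 and 82.37 CPM after olive oil, 136.1, 108.0, 90.91 and 103.9 CPM after CCl4, 167.5, 136.5, 111.1 and 91.80 CPM after ethanol and 90.51, 85.42 and 97.32 CPM in CCl4+EtOH. The highest values were in CCl4 replicate 1 and in EtOH replicates 1 to 3, which are the libraries with adrenal transcripts in the latter group. Neither the change after ethanol (0.57 ± 0.19, adjusted p = 0.27) nor that in CCl4+EtOH (0.09 ± 0.20, adjusted p = 0.754) passed the test.

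Kcnma1, the large potassium channel that flow activates, rose in CCl4+EtOH against olive oil, by a log2 change of 1.06 ± 0.30 (adjusted p = 0.0152). Its levels were low: 5.280, 4.196 and 4.498 CPM after olive oil and 7.668, 15.05 and 6.260 CPM in CCl4+EtOH, without overlap. It read between 5.823 and 6.084 CPM in the 4 CCl4 libraries, and 8.477, 7.716, 9.419 and 4.438 CPM after ethanol, where only replicate 4, the library with 7 of 10 adrenal markers at 0, lay within the olive oil range. Replicate 2 carried much of the rise in CCl4+EtOH: without it the log2 change was 0.59 (adjusted p = 0.0994), and without olive oil replicate 2 the adjusted p was 0.0583. Smooth muscle also makes this channel, its marker sums are given above with Slc8a1, and its part in the rise was not tested. Elf5, a transcription factor of principal cells, read between 0.6974 and 10.41 CPM over the 14 libraries, and its log2 change of -0.135 ± 0.80 in CCl4+EtOH has too wide an error to read.

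Of the sodium pump genes, Fxyd2, the gamma subunit that modulates the pump, fell. It read 1527, 1796 and 1490 CPM after olive oil and 824.6, 945.3 and 1334 CPM in CCl4+EtOH, without overlap, a log2 change of -0.63 ± 0.16 (adjusted p = 0.0083). That call was lost in the fit of only the groups compared and in the fit with the title number block. Atp1b1, the beta subunit, read 2748, 2527 and 2936 CPM after olive oil and 2161, 2200 and 2357 CPM in CCl4+EtOH, again without overlap, but its smaller log2 change of -0.29 ± 0.13 missed the threshold (adjusted p = 0.0948, and 0.0276 without CCl4+EtOH replicate 3). An exon of Atp1b1 overlaps one of Nme7 on the opposite strand in GENCODE M21, and without known use of strand the reads of the overlap cannot be assigned. Fxyd4, the corticosteroid-induced regulator of the collecting duct pump, had a log2 change of -0.11 ± 0.20 (adjusted p = 0.697). Both Atp1b1 and Fxyd2 are made along much of the nephron, proximal tubule included. The proximal tubule list fell in 4 of its 8 genes in the same comparison (50%, beside 16.6% of all genes tested). Its summed levels were 7069 to 16850 CPM in CCl4+EtOH and 17790 to 20120 CPM after olive oil, and its part in these changes was not tested.

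The comparison with CCl4 alone asks what followed when ethanol came after CCl4. CCl4 replicates 1 and 2 ended at 6 weeks and replicates 3 and 4 received CCl4 for 4 more, so ethanol, the further weeks and continued or ended CCl4 cannot be told apart in it. Against CCl4, 8 of 33 members fell in CCl4+EtOH (24.2%, beside 16.2% of all genes tested) and 1 rose (3.03%, beside 18.7%). The 8 were Slc12a1, Kcnj1, Bsnd, Ppp1r1a, Calb1, Wnk4, Klhl3 and Fxyd2, and the gene that rose was Trpv5. All 9 were also called, in the same direction, against olive oil. The log2 change of Ppp1r1a was -1.13 ± 0.24 (adjusted p = 0.00306), that of Klhl3 -1.02 ± 0.24 (adjusted p = 0.006), that of Wnk4 -0.66 ± 0.15 (adjusted p = 0.00452) and that of Trpv5 0.90 ± 0.20 (adjusted p = 0.00365). These 4 calls held under all 26 alternatives run. Stk39 showed a log2 change of -0.01 ± 0.11, since it was already at a mean of 43.90 CPM after CCl4. Without CCl4+EtOH replicate 1, 3 members fell, no larger a share than the 9.87% of all genes lower in that fit. Without replicate 3, 16 fell and 2 rose, beside 22.1% of all genes lower and 23% higher. Bsnd lost its call without any of the CCl4 libraries (adjusted p between 0.0505 and 0.0709), Kcnj1 without CCl4 replicate 1 or 2 (0.0542 and 0.0673) and Calb1 without CCl4 replicate 2 (0.0766).

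Against ethanol alone, which asks what CCl4 added to ethanol over the same number of weeks, 11 of 33 members fell in CCl4+EtOH (33.3%, beside 16.2% of all genes tested) and 1 rose (3.03%, beside 18.1%). Slc12a1, Kcnj1, Bsnd, Ppp1r1a, Wnk4, Klhl3 and Fxyd2 fell here as against the other 2 groups, and Casr, Slc12a3, Kcnj16 and Atp1b1 fell with adjusted p between 0.0416 and 0.0469. Each of these last 4 was called under 9 or fewer of the 26 alternatives run. Kcnj1 had a log2 change of -0.74 ± 0.16 (adjusted p = 0.00307) and Slc12a1 of -0.835 ± 0.20 (adjusted p = 0.00562). Trpv5 rose by a log2 change of 1.19 ± 0.20 (adjusted p = 0.000841). With EtOH replicate 4, the library without the adrenal signal, standing alone for its group no member was called, and 0.864% of all genes tested were called higher and 1.13% lower. With the adrenal level as a covariate no member was called either, beside 2.45% of all genes higher and 2.13% lower. The members' median log2 change moved little: it was -0.378 with all 4 EtOH libraries, -0.409 with replicate 4 alone and -0.373 with the covariate. That of Trpv5 was at least 0.973 under all 26 alternatives. Some members moved more: over the same 26, Sgk1 ranged from -0.603 to -0.028 and Calb1 from -0.777 to -0.154. Without CCl4+EtOH replicate 1 the count of members that fell was 4 (beside 8.63% of all genes), and without replicate 3 it was 20 (beside 22.4%).

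The comparisons of CCl4+EtOH with olive oil, CCl4 and ethanol share the 3 CCl4+EtOH libraries, so their calls are not independent of each other. The interaction asks whether the change with CCl4 and ethanol together differed from the sum of the changes with each, on the log2 scale, and it carries the same unequal schedules. Of the 33 members 1, Trpv5, passed (3.03%, beside 9.12% of all genes tested), with an interaction of 1.34 ± 0.28 (adjusted p = 0.0177). Trpv5 averaged 29.98 ± 3.70 CPM after olive oil (SD, n = 3), 27.12 ± 3.53 after CCl4 (SD, n = 4), 22.17 ± 2.46 after ethanol (SD, n = 4) and 50.66 ± 17.40 with both (SD, n = 3). Its call was lost without CCl4+EtOH replicate 1 or replicate 2, with EtOH replicate 4 alone, with the adrenal level as a covariate and with the 6-week CCl4 mice alone, while its size stayed between 1.104 and 1.597 under all 25 alternatives run. Over all genes the calls went from 884 higher and 584 lower to 1 and 2 with the covariate and to 0 and 3 with EtOH replicate 4 alone. The next members by p were Ppp1r1a (-1.07 ± 0.33, adjusted p = 0.0593), Sgk1 (-0.84 ± 0.27, adjusted p = 0.0663) and Kcnj1 (-0.64 ± 0.22, adjusted p = 0.0778). Without CCl4+EtOH replicate 3, 14 members passed the interaction test, beside 14.5% of all genes higher and 15.3% lower in that fit, among them Slc12a1 at -0.96 (adjusted p = 0.00935) and Slc12a3 at -0.92 (adjusted p = 0.00583).

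CCl4 alone changed no member past the threshold against olive oil. EdgeR called 0 of 33 members and 0% of all genes tested, and DESeq2 and limma-voom called 0 members. In edgeR 2 members had an unadjusted p under 0.05, as had 640 of the 16105 genes tested. The 2 members were Stk39, at -0.33 ± 0.11, and Ptger3, at -0.47 ± 0.17. Stk39 read 60.78, 53.80 and 51.38 CPM after olive oil and 44.10, 48.75, 43.83 and 38.91 CPM after CCl4, without overlap, yet its adjusted p was 1. The members' median log2 change was -0.093, beside -0.001 over all genes tested.

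Within the CCl4 group, 2 libraries of the 6-week schedule stood beside 2 with the added weeks at a reduced dose, and no test was made of 2 against 2. Both libraries of the longer schedule lay below both of the 6-week schedule for 14 of 33 members (42.4%, beside 23.1% of all genes tested) and above for 1, Elf5 (3.03%, beside 24.3%). All 3 sodium channel subunits were among the 14. Scnn1b read 75.35 and 77.72 CPM on the 6-week schedule and 55.94 and 55.39 CPM on the longer one, and Scnn1g read 66.54 and 62.62 CPM against 45.78 and 50.40 CPM.

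Ethanol alone also called no member. EdgeR called 0 of 33 members against olive oil, beside 0.0807% of all genes tested higher and 0.0869% lower, DESeq2 and limma-voom called 0 members, and 6 members had an unadjusted p under 0.05, as had 1679 of the 16105 genes tested. That count of members was 0 with the adrenal level as a covariate, 0 with EtOH replicate 4 alone, 1 without EtOH replicate 1 and 1 without EtOH replicate 3, and the members' median log2 difference went from -0.066 to 0.021 with the covariate and to -0.012 with replicate 4 alone. Of the 6, Ptger3, Trpv5, Calb1 and Wnk4 lay lower after ethanol, and Sgk1 and Kcnma1 higher. Trpv5 read 19.83 to 25.17 CPM after ethanol, below the olive oil range of 27.10 to 34.14 CPM, with a log2 difference of -0.44 ± 0.20 (adjusted p = 0.47). Calb1 had a log2 difference of -0.53 ± 0.24 (adjusted p = 0.45) and Wnk4 of -0.33 ± 0.15 (adjusted p = 0.447). Of these 6 members, EtOH replicate 4, the library without the adrenal signal, was the highest of its group for Trpv5 and Calb1 and the lowest for Sgk1 and Kcnma1. For Wnk4 and Ptger3 it lay within the range of the other EtOH libraries, at 201.5 and 30.88 CPM.

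Ratios of a pair of members within a library do not depend on how libraries are scaled, and 7 pairs were compared between CCl4+EtOH and each other group, 21 exact two-sided permutation tests in all, chosen after the data were seen. None reached 0.05: the smallest p that 3 against 3 libraries allow is 0.1 and 3 against 4 allow 0.0571, and no adjusted p was under 0.2. The log2 ratio of Slc12a1 to Umod was -1.521, -1.725 and -1.294 after olive oil and -2.185, -2.067 and -1.946 in CCl4+EtOH, which lay below all other libraries. The log2 ratio of Trpv5 to Calb1 was -1.708, -2.228 and -3.887 in CCl4+EtOH and between -4.46 and -3.928 in the other 11 libraries, so that replicate 3 too lay above them. The log2 ratio of Scnn1a to Scnn1b was 0.377, 0.369 and 0.922 in CCl4+EtOH against 1.411, 1.287 and 1.438 after olive oil, and it overlapped the EtOH values, the lowest of which was 0.891. For Slc12a1 over Slc12a3, Pvalb over Slc12a3 and Fxyd2 over Atp1b1, CCl4+EtOH overlapped each of the other groups.

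**Figure D4:**
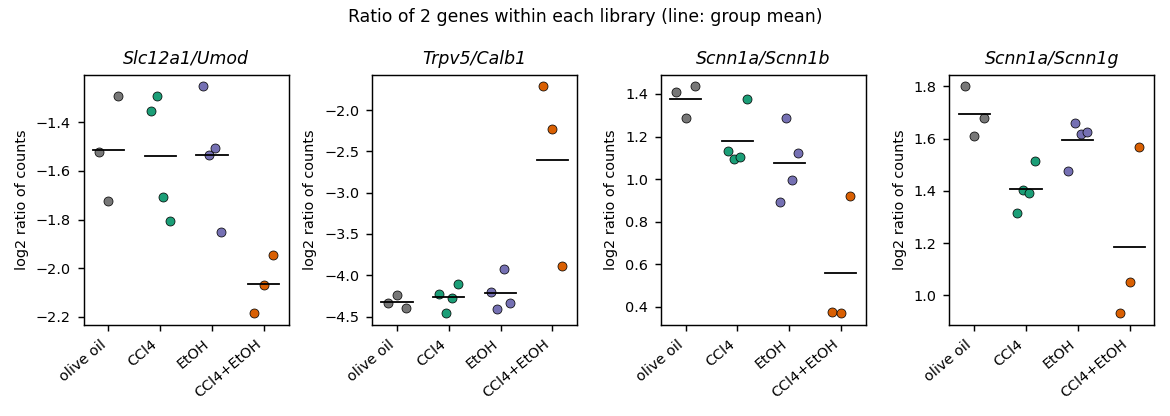
Points give the log2 ratio of the counts of 2 members in each of the 14 libraries, by group, and lines give group means. The Slc12a1 to Umod ratio is lowest in the 3 CCl4+EtOH libraries, the Trpv5 to Calb1 ratio is highest in them, and the Scnn1a to Scnn1b ratio in CCl4+EtOH overlaps only that after ethanol.

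Another 47 genes of the same segments were read beside the members. In CCl4+EtOH against olive oil 13 of the 47 fell (27.7%, beside 16.6% of all genes tested) and 5 rose (10.6%, beside 18.9%), with a median log2 change of -0.19. The same shares of all genes stand beside the counts of the smaller lists below. In the thick ascending limb 3 of 8 fell. Egf, the precursor of epidermal growth factor made in this limb and the early distal tubule, read 2483, 2669 and 2492 CPM after olive oil and 305.7, 414.9 and 1706 CPM in CCl4+EtOH, a log2 change of -1.655 ± 0.47 (adjusted p = 0.0146). The transcription factor Irx1 had a log2 change of -0.89 ± 0.28. Of 12 genes of the distal convoluted tubule and the WNK pathway, 3 fell and 1 rose: Cul3, the ligase scaffold that Klhl3 serves, had a log2 change of -0.40 ± 0.10 and the transcription factor Emx1 of -0.93 ± 0.20, while the kinase Wnk3 rose by 1.14 ± 0.30 from a mean of 0.7376 CPM.

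Among 5 further calcium genes, 2 fell and 1 rose. S100g, the second calbindin of these cells, read 406.9, 440.2 and 400.4 CPM after olive oil and 49.35, 101.0 and 182.7 CPM in CCl4+EtOH, a log2 change of -1.905 ± 0.33 (adjusted p = 0.00113). Vdr, the vitamin D receptor, had a log2 change of -0.66 ± 0.23, with overlap between the groups. Atp2b1, a calcium pump of the basolateral membrane, rose by 0.58 ± 0.09 (adjusted p = 0.000536). Both calbindin genes fell, the entry channel Trpv5 and the pump Atp2b1 rose, and the exchanger Slc8a1 was not called. Which cells these changes came from was not tested. Of 16 principal cell and aldosterone genes, 5 fell and 2 rose. Those with the smallest p were Nedd4, a ubiquitin ligase related to Nedd4l, at 0.74 ± 0.13, tissue kallikrein Klk1, at -1.24 ± 0.23, and Furin, a protease that can cleave the sodium channel, at -0.59 ± 0.14. Of 6 sodium pump genes, Fxyd5 rose from a mean of 14.67 to 36.34 CPM, a log2 change of 1.31 ± 0.23 (adjusted p = 0.000929).

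Markers of other cell types were read beside the members. Of 8 markers of intercalated cells, which lie among the principal cells, 1 fell in CCl4+EtOH against olive oil (12.5%, beside 16.6% of all genes tested), and their summed level was 280.8 to 618.0 CPM against 549.0 to 656.3 CPM, with overlap. Of 6 macrophage markers tested 5 rose (83.3%, beside 18.9% of all genes tested), from summed levels of 167.7 to 233.8 CPM to 338.5 to 473.9 CPM. None of 4 kidney epithelium markers was called, and they summed to 1788 to 1867 CPM in CCl4+EtOH and 1701 to 1881 CPM after olive oil. The part of these levels in the members' changes was not tested.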

How the data were processed

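Kidney RNA-seq of 14 mice in 4 groups was analysed. The authors deposited raw, unnormalized read counts, with a row for each gene symbol and a column for each mouse. Per the submitters' processing notes the tools and builds include GSNAP and mm9. Per the labels' protocols, RNA came from flash-frozen kidneys by column purification. Which program and annotation gave the counts, and whether strand was used, is not given in the sources used here. The 15 samples of the series have 14 columns in the table, so an olive oil sample is not analysed here. Of 23893 rows, 27 carried a date in place of a symbol and were left out; they held 0.1685% to 0.209% of counts.

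The test was that of edgeR 4.0.16 under R 4.3.3 (filterByExpr by group with a count minimum of 10, TMM, robust quasi-likelihood F test, all libraries in 1 fit, Benjamini-Hochberg adjustment over 16105 genes, threshold 0.05). Adjusted p-values are from that test unless another is named, and SE is the log2 change, without its sign, over the root of the F statistic. CPM use TMM-scaled libraries. Labels number mice but do not describe cages or batches, and p-values measure the spread between mice. No libraries of a group agreed within sampling noise (chi-square per gene at least 10.28).

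Every member is named; of other lists, up to 3 called genes with the smallest p. The members and lists were chosen with earlier results of these data known. Alternatives were other scalings, filters, DESeq2 1.42.0, limma-voom (limma 3.58.1), fits of only the groups compared and each library left out; library totals, an adrenal covariate, a title number block, EtOH replicate 4 alone, the 6-week CCl4 mice alone and ratios (scipy 1.17.1) were added after seeing the data. The procedure was tested on simulated counts. Promoters and gene overlaps come from RefSeq GRCm38.p6 and GENCODE M21, another build than that of the counts.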

Additional observations from a re-analysis of the deposited data

Results flagged for a closer look

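In groups of 4 libraries, 66 tests for a value far from the others were made over the members, and 3 passed Dixon's 95% limit, which chance does in about 1 of 20 groups. Pvalb read 28.28 CPM in EtOH replicate 4 and between 17.36 and 18.64 CPM in the other EtOH libraries. Calb1 read 704.7 CPM in CCl4 replicate 2 and between 454.9 and 479.8 CPM in the other CCl4 libraries. Elf5 read 10.41 CPM in EtOH replicate 1 and between 0.6974 and 2.226 CPM in the other EtOH libraries.

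The change of Trpv5 with CCl4 differed between mice with and without ethanol, by the interaction test in edgeR. The difference was 1.339 on the log2 scale, with Trpv5 at 50.66 CPM with both and 22.17 CPM with ethanol alone, against 27.12 CPM with CCl4 alone and 29.98 CPM after olive oil. It was higher than in every EtOH and olive oil library only in CCl4+EtOH replicates 1 and 2. The interaction call was lost without replicate 1 or without replicate 2 of CCl4+EtOH. It was also lost with the adrenal level as a covariate and with the 6-week CCl4 mice alone.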

How the results depend on the processing

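No paired analysis was possible because the numbers in the titles are animal numbers that no 2 groups share. Of 37 calls of a member in a comparison, 5 held under every alternative run: Klhl3, Ppp1r1a, Trpv5 and Wnk4 against CCl4, and Ptger3 against olive oil. For CCl4 and for ethanol against olive oil, 0 members were called under every alternative. Slc8a1, at 0.03 against olive oil, ranged from -0.462 without CCl4+EtOH replicate 3 to 0.292 without CCl4+EtOH replicate 1.

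With each library left out in turn, members lower in CCl4+EtOH were 9 to 21 against olive oil, 3 to 16 against CCl4 and 4 to 20 against ethanol. Beside these ends stood 10.9% and 22.1%, 9.87% and 22.1%, and 8.63% and 22.4% of all genes lower. Members higher were 0 to 2, 1 to 2 and 1 to 1. The interaction called 0 to 14, beside 1.32% and 14.5% of all genes higher and 0.767% and 15.3% lower. Against olive oil, fits of only the groups compared gave 4 lower and 0 higher, beside 9.4% and 11.6% of all genes. Library totals gave 8 lower, beside 8.77%. The title number block gave 2 lower and 0 higher, beside 9.5% and 9.74%. Against CCl4, limma-voom gave 16 lower and 2 higher, beside 21.3% and 23.5% of all genes. Fits of only the groups compared gave 4 lower, about the same share as the 12.1% of all genes. Library totals gave 5 lower and 2 higher, beside 8.86% and 36.9%, and the adrenal covariate 2 higher, beside 17.8%. Against ethanol, members lower were 7 with upper-quartile factors (beside 13.5% of all genes), 18 with limma-voom (21%) and 7 with no filter on low counts (11.5%). They were 4 with only the groups compared (8.95%), 6 with library totals (7.94%) and 7 with the 6-week CCl4 mice alone (14.4%). The adrenal covariate left 0 lower and 0 higher, beside 2.13% and 2.45%. With EtOH replicate 4 alone, the members' median log2 change was -0.409. The interaction called 5 members with DESeq2, beside 8.26% of all genes higher and 7.24% lower. It called 10 with limma-voom (15% and 15.1%) and 2 with the title number block (6.18% and 3.43%). With the adrenal covariate it called 0 (0.00621% and 0.0124%), and with the 6-week CCl4 mice alone 0 (2.43% and 1.14%). The fits of fewer groups or fewer libraries have fewer degrees of freedom, and the fit with 1 EtOH library borrows its spread from the remaining groups. The main fit uses the same estimate of a gene's spread for all 4 groups. The members' median coefficient of variation was 26.14% in CCl4+EtOH, beside 10.4% after olive oil, 12.55% after CCl4 and 12.61% after ethanol. Over all genes tested with a mean of at least 1 CPM it was also highest in CCl4+EtOH, at 14.68%. The values there were 9.147% after olive oil, 9.873% after CCl4 and 10.77% after ethanol. The cause of the shifts was not tested. At 3 or 4 libraries a group and levels such as those of Elf5, small differences were not detectable.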
